A study of Mus musculus with 16 samples.

Results

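Injury responses of knee joint cells were compared between WT and Trem2-/- mice in all 16 bulk RNA-seq libraries of the series. The quantity compared was the interaction of genotype and injury, the D7 minus D0 difference in Trem2-/- mice minus the same difference in WT mice, so that a positive value means a more positive response without Trem2. All 13733 genes of the table were eligible, and the 13173 genes with at least 1 CPM (counts of reads that the authors scaled for the size of each library) in at least 4 libraries were tested on the log2(CPM + 1) scale, with interactions given ± their standard error from limma. Each of the 4 groups, WT and Trem2-/- mice at D0 and at D7, had 4 libraries. WT mice were C57BL/6, described in the study's methods as male C57BL/6J, and Trem2-/- mice carried the em2Adiuj knockout allele of Trem2 on C57BL/6J. D0 mice were uninjured, and D7 mice were taken 7 days after rupture of the anterior cruciate ligament by a single compression of the tibia at 10 weeks of age. The knockout was present in every cell of the mice, and no group with a second Trem2 allele was included. The labels give an age of 16 weeks and a protocol for homogenized whole joints with a TruSeq v2 kit, whereas the methods describe enzymatically released joint cells and a stranded mRNA kit. Whether the cells were enriched for leukocytes before RNA isolation is not stated, and neither is whether replicates were separate mice, so the p-values measure the spread between these libraries.

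Trem2 is a receptor on the surface of macrophages, osteoclasts and related myeloid cells that binds lipids and lipoproteins such as those carrying Apoe, and it signals through the adaptor Tyrobp. It is known for sustaining the survival, lipid handling and phagocytosis of tissue macrophages. After a ligament tear, monocytes enter the joint and become macrophages while fibroblasts, tendon cells and cartilage cells lay down new matrix. An interaction asks whether these injury-induced changes differ in size or direction without Trem2.

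The WT D0 libraries were spread widely before any comparison was made. On the first principal component, which held 69.3% of the variance and separated D0 from D7, WT D0 replicates 1 and 4 lay at -9.57 and -2.64. WT D0 replicates 2 and 3 lay at -72.1 and -47.5, the Trem2-/- D0 libraries between -69.4 and -35.2, the WT D7 libraries between 20.49 and 39.9 and the Trem2-/- D7 libraries between 43.7 and 54.8. The summed CPM of 9 fibrillar collagen and collagen VI genes was 19274, 6170, 11137 and 56629 at WT D0, against 4381 to 10752 at Trem2-/- D0, 90898 to 135616 at WT D7 and 122696 to 166184 at Trem2-/- D7. The summed CPM of 10 pan-leukocyte genes was 3534, 6718, 7129 and 4321 at WT D0, 4391 to 7822 at Trem2-/- D0, 1960 to 4224 at WT D7 and 1503 to 1932 at Trem2-/- D7. WT D0 replicates 1 and 4 thus had the most collagen RNA and the least leukocyte RNA of the WT D0 libraries. No gene of either list was at 0 in any group. Because the WT D0 group enters every interaction, the counts and list medians are also given without WT D0 replicates 1 and 4. This pair was chosen after the data were seen. Each library held 11567073 to 32867818 reads on genes of the table, and 3 reads corresponded to 0.101 to 0.25 CPM.

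**Figure D1:**
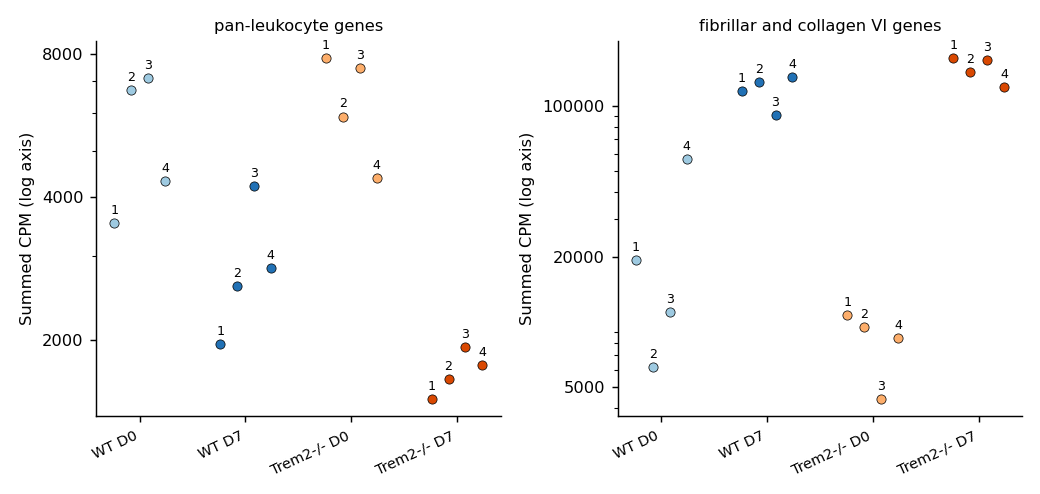
Summed CPM per library (log axis) of 10 pan-leukocyte genes (left) and 9 fibrillar collagen and collagen VI genes (right) in the 4 groups, each point 1 library with its replicate number. WT D0 replicates 1 and 4 have the lowest leukocyte sums (3534 and 4321) and the highest collagen sums (19274 and 56629) of the 4 WT D0 libraries.

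By the rule of the study's methods, genes were called at an unadjusted p-value under 0.05 and a change over 25%. The injury response was called different between the genotypes in 1026 of the 13173 genes (7.79%). Of these, 365 (2.77% of genes tested) had a more positive and 661 (5.02%) a more negative response in Trem2-/- mice. No gene (0%) passed a Benjamini-Hochberg adjusted p of 0.05 with limma, where the smallest adjusted p was 0.579. An unadjusted p under 0.05 was found for 1075 genes, where 659 (5%) are expected by the threshold alone. That number was 439 without WT D0 replicates 1 and 4 and 3483 without WT D0 replicates 2 and 3. Leaving out WT D0 replicate 4 alone gave 632. The excess over 659 thus depended on the WT D0 libraries included. With the other tools, an adjusted p under 0.05 was reached by 0 genes with edgeR, 0 with voom and 1 with DESeq2. In WT mice 2538 genes (19.3%) were called higher and 2395 (18.2%) lower at D7, and the corresponding numbers in Trem2-/- mice were 3493 (26.5%) and 3680 (27.9%). Members of gene lists called higher or lower at D7 are to be read against these shares. The lists were chosen with earlier results of these data known, and some share members, such as Kera, Rac2 and Fcgr1. Their counts are thus not independent of each other.

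Most interactions were larger responses in the same direction. Of the 1026 genes, 912 (88.9%) changed the same way in both genotypes and by more in Trem2-/- mice, 10 (0.975%) changed the same way and by less, and 104 (10.1%) had responses of opposite sign. Over all genes tested these shares were 69.6%, 19% and 11.5%. Among the 4933 genes called in WT mice, 4023 (81.6%) changed the same way and by more in Trem2-/- mice. Over all genes tested, the median size of the response on the log2 scale was 0.30 for WT and 0.44 for Trem2-/- mice. No gene was called in both genotypes in opposite directions.

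Without WT D0 replicates 1 and 4, 431 genes were called, 117 more positive and 314 more negative. Of these, 75 had a smaller response in Trem2-/- mice and 124 responses of opposite sign. The share with a larger response in Trem2-/- mice was then 53.8%, and of the genes called in WT mice 46.1% changed by more in Trem2-/- mice. Of the 1026 genes, 1026 kept the sign of the interaction without these libraries and 270 were called again, 201 of the 661 more negative genes and 69 of the 365 more positive genes. Without WT D0 replicates 2 and 3 instead, 3437 genes were called, among them 935 of the 1026. The genotypes differed more at D7 than at D0 for 533 of the 661 more negative genes (80.6%) and for 196 of the 365 more positive genes (53.7%).

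**Figure D2:**
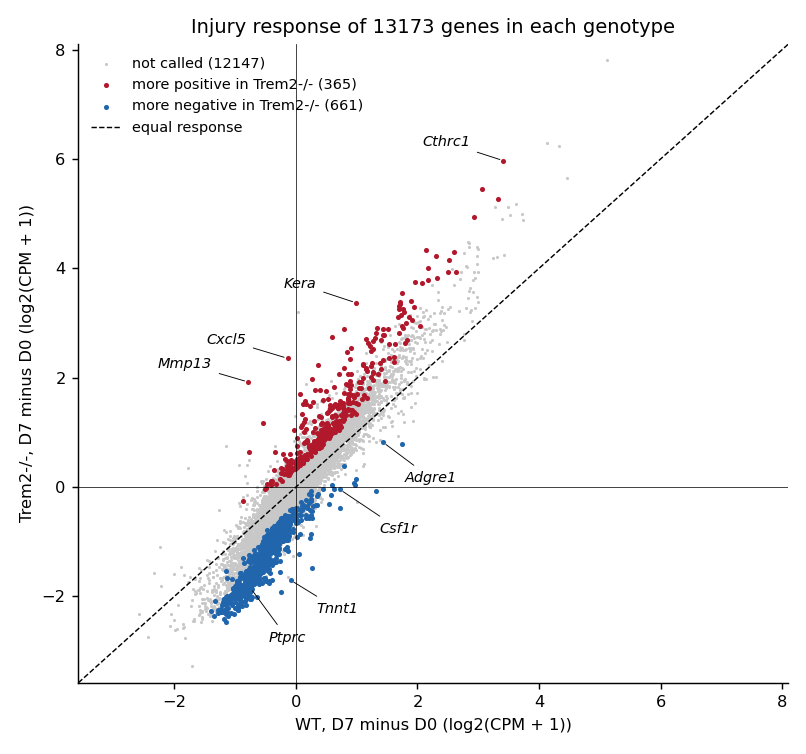
Change from D0 to D7 in WT mice (horizontal axis) against that in Trem2-/- mice (vertical axis), both in log2(CPM + 1), for 13173 genes, with called interactions in colour and the dashed line at equal responses. The 365 more positive genes lie above the line, mostly among genes that are higher at D7, and the 661 more negative genes lie below it, mostly among genes that are lower at D7.

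The more negative genes of smallest p-value encoded regulators of immune cell signalling, endosomes and the actin cytoskeleton as well as others. Each of the 10 was called under every single library left out and without WT D0 replicates 1 and 4, and each had an adjusted p of 0.579 with limma. Fkbp15, an endosome-associated protein on chromosome 4 (62300342 to 62360548, GRCm38), was 47.3, 61.1, 53.1 and 49.1 CPM at WT D0 and 47.8, 49.3, 55.8 and 60 at WT D7. It was 63.5, 68.5, 70.2 and 55.3 at Trem2-/- D0 and 41.6, 40.2, 42.7 and 40.1 at Trem2-/- D7, so that the Trem2-/- groups did not overlap and the WT groups did. Its response was 0.02 in WT and -0.63 in Trem2-/- mice, an interaction of -0.65 ± 0.15.

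Dgkz, a diacylglycerol kinase that dampens lymphocyte receptor signalling, was 212, 254, 184 and 190.1 CPM at WT D0 and 139, 146, 197 and 219 at WT D7. In Trem2-/- mice it was 257, 272, 239.9 and 242 at D0 and 125, 109.5, 106 and 121 at D7, below every WT D7 library. The interaction was -0.85 ± 0.20, and without WT D0 replicates 1 and 4 it was -0.80. Nfkbid, an atypical inhibitor of NF-kappaB, fell in both genotypes, from 117, 193, 166 and 136 to 71.4, 90.5, 98.5 and 66.5 CPM in WT and from 197, 223, 261 and 165 to 52, 53.9, 62.5 and 53 in Trem2-/- mice, an interaction of -1.01 ± 0.24. Slc2a6, a glucose transporter of leukocytes and macrophages, fell from 84.3, 111, 131 and 78.2 to 39.5, 48.9, 93.9 and 69.6 CPM in WT and from 149, 146, 103 and 109.8 to 27.4, 31.4, 33.9 and 29.4 in Trem2-/- mice. Its interaction of -1.29 ± 0.32 was the largest of the 10 in size, and its Trem2-/- D7 libraries lay below all other libraries.

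Pi16, a marker of adventitial fibroblasts, fell by 0.43 on the log2 scale in WT and by 1.56 in Trem2-/- mice. It was 78.6, 85.1, 72.3 and 53.6 CPM at WT D7 and 39.6, 48, 54.6 and 53.7 at Trem2-/- D7, with overlap at D7 and, from 93.5, 97, 126 and 75.2 at WT D0 against 192, 140.5, 157 and 107 at Trem2-/- D0, at D0. The others were Map4k2, a germinal centre kinase (-0.96 ± 0.22), Dtx4, a Deltex ubiquitin ligase (-0.997 ± 0.24), Arap1, a GTPase-activating protein of Arf (-0.79 ± 0.19), Ssh2, a cofilin phosphatase (-0.63 ± 0.16), and Fam217b (-0.88 ± 0.21). Exons of Map4k2, Dgkz and Pi16 overlap those of Gm14966, Gm9821 and AC162182.1 on the opposite strand, and whether reads were counted by strand is not given in the sources used here. Pi16 did not stand for fibroblast genes in general. Of 12 tested, 8 had a positive and 4 a negative interaction, with Lum called more positive and Pi16 more negative. Their median interaction was 0.27, or -0.23 without WT D0 replicates 1 and 4.

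Pan-leukocyte genes fell after injury in both genotypes, with larger median falls in Trem2-/- mice. CPM values are relative to the reads of the whole library. In bulk libraries, fewer leukocytes, less RNA of these genes per cell and more RNA of other cells cannot be told apart. All 10 pan-leukocyte genes were called lower at D7 in each genotype, and 8 of 10 were called for the interaction, all more negative, against 5.02% of all genes tested. Their median response was -1.0 in WT and -1.95 in Trem2-/- mice, with a median interaction of -0.95 against 0.0056 over all genes tested. Ptprc, which encodes CD45, was 358, 644, 643 and 411 CPM at WT D0, 236, 237, 439.8 and 308 at WT D7, 726, 678, 709.9 and 418 at Trem2-/- D0 and 140.1, 168, 206 and 178 at Trem2-/- D7. All Trem2-/- D7 values lay below all WT D7 values, and the D0 groups overlapped. The interaction of Ptprc was -1.10 ± 0.35. Without WT D0 replicates 1 and 4 it was -0.72 and not called, the median of the list was -0.53, and 0 of its 10 genes were called.

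**Figure D3:**
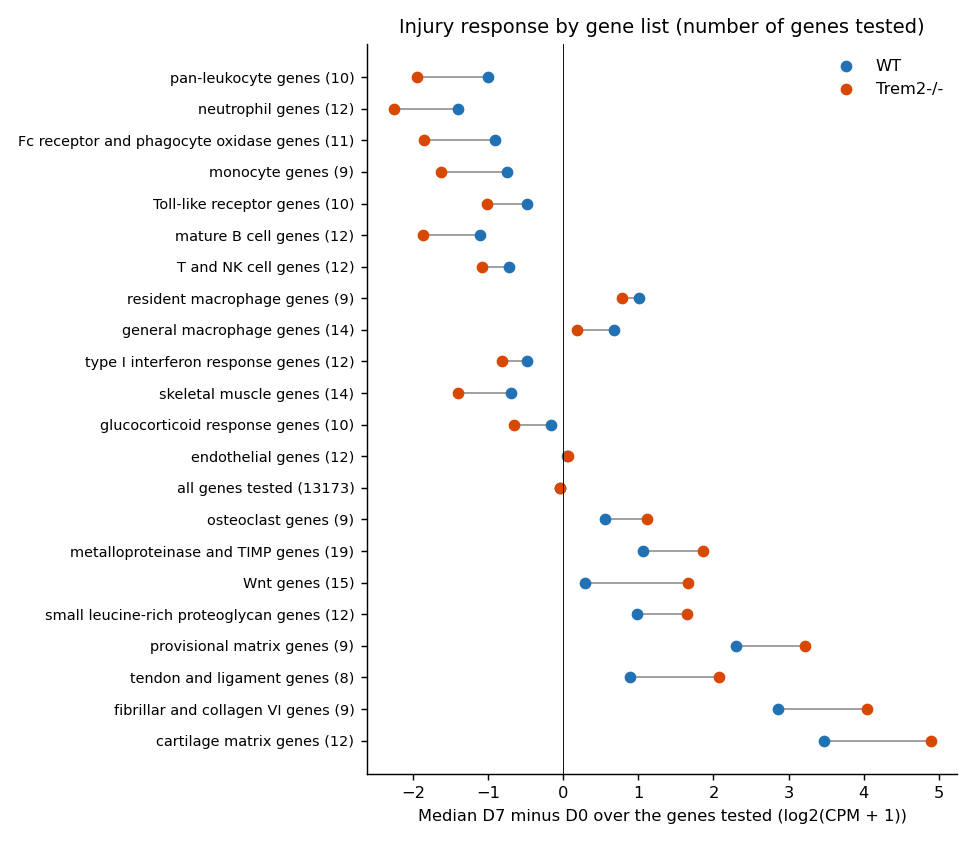
Median response (D7 minus D0, log2(CPM + 1)) of the tested genes of 21 gene lists and of all 13173 genes in WT (blue) and Trem2-/- mice (orange), the number of genes in parentheses. Medians of leukocyte lists lie lower in Trem2-/- than in WT mice, as for pan-leukocyte genes at -1.95 and -1.0, and medians of matrix lists lie higher, as for collagens at 4.05 and 2.85.

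Neutrophil, Fc receptor and Toll-like receptor lists also had negative medians in both genotypes that were lower in Trem2-/- mice. Their members called more negative are to be read against 5.02% of all genes tested. Of 12 neutrophil genes all were lower at D7 in both genotypes, the median interaction was -0.89, or -0.36 without WT D0 replicates 1 and 4, and 1 was called, Csf3r, the receptor for the growth factor of granulocytes. Csf3r was 213, 288, 572 and 504 CPM at WT D7 and 182, 204, 286 and 212 at Trem2-/- D7, with an interaction of -1.19 ± 0.39 and -0.90 without WT D0 replicates 1 and 4, where it was called again. Of 11 Fc receptor and phagocyte oxidase genes, which bind antibody-coated targets and make reactive oxygen, 7 were called, all more negative, among them Fcgr1, Fcgr3, Fcer1g, Ncf4 and Rac2, with a median interaction of -0.91. Ncf4, an oxidase subunit, was 44.8, 59.9, 84.6 and 68.3 CPM at WT D7 and 29.9, 35.9, 40.3 and 34.5 at Trem2-/- D7, an interaction of -1.21 ± 0.40. The median of that list was -0.60 without WT D0 replicates 1 and 4, and none of its genes was called by limma.

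Of 10 Toll-like receptor genes, which sense microbial products, 4 were called (Tlr2, Tlr7, Tlr9 and Tlr13), all more negative, with a median interaction of -0.74 that was -0.39, with 0 called, without WT D0 replicates 1 and 4. The monocyte genes called more negative included Cx3cr1 and Treml4, and the list median of -0.81 was -0.34, with 1 called, without WT D0 replicates 1 and 4. Treml4, a receptor of the same family as Trem2, fell from 8.37, 15.3, 11.5 and 8.61 to 3.34, 4.93, 7.03 and 7.6 CPM in WT and from 14.9, 11.8, 12.2 and 8.57 to 2.32, 2.27, 2.63 and 2.09 in Trem2-/- mice. Its interaction was -1.09 ± 0.32, the Trem2-/- D7 libraries lay below all others, and it was called again without WT D0 replicates 1 and 4 (-0.80). Mature B cell and T and NK cell lists also had negative medians, and plasma cell genes a positive one. The median interaction was -0.72 over 12 mature B cell genes, of which Bank1, a B cell receptor scaffold, was called (-0.77 ± 0.31), and -0.42 over 12 T and NK cell genes, of which 0 were called by limma. Leaving out WT D0 replicates 1 and 4, these medians were -0.34 and -0.09 with 0 called in either list, and Bank1 was -0.44. All 5 plasma cell genes tested had a positive interaction, with a median of 0.47, or 0.31 without those libraries. Prdm1, a transcription factor of plasma cells, was called more positive (0.47 ± 0.21, and 0.31 and not called without them). The 5 plasma cell genes did not respond to injury in one direction. In each genotype 2 were called lower at D7, while 1 was called higher in WT and 2 in Trem2-/- mice.

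Macrophage genes, unlike pan-leukocyte genes, were mostly called higher at D7 in WT mice. The median over 14 general macrophage genes was 0.68 in WT, with 10 called higher and 0 lower at D7, and 0.18 in Trem2-/- mice, with 6 called higher and 3 lower. The median interaction was -0.22, and 5 were called, all more negative (Adgre1, Csf1r, Cd68, Fcgr1 and Mpeg1), against 5.02% of all genes tested. Of the others 3 had a positive interaction, and without WT D0 replicates 1 and 4 the median was -0.34 with 2 called. Adgre1, which encodes the macrophage antigen F4/80 and lies on chromosome 17 (57358691 to 57483527, GRCm38), rose in both genotypes. It was 20.4, 30.7, 40 and 38.2 CPM at WT D0, 91.6, 92.4, 97.5 and 67.3 at WT D7, 39.8, 32.2, 33.3 and 29.3 at Trem2-/- D0 and 61.9, 63.7, 49.6 and 65 at Trem2-/- D7. The response was 1.43 in WT and 0.82 in Trem2-/- mice, an interaction of -0.62 ± 0.26 that was not called without WT D0 replicates 1 and 4 (-0.46).

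Csf1r, the receptor for the survival factor of macrophages, rose in WT mice from 69.9, 135, 163 and 112 to 204, 196, 204 and 159 CPM. In Trem2-/- mice it was 151, 120.3, 151 and 114 at D0 and 133, 144, 120.1 and 121 at D7, overlapping groups with a response of -0.04 that was not called. Its interaction was -0.77 ± 0.28, was called under every single library left out, and was -0.40 and not called without WT D0 replicates 1 and 4. Exons of Csf1r overlap those of Hmgxb3 on the opposite strand. Cd68, a lysosomal glycoprotein of macrophages, was 81.1, 75, 96.6 and 95.3 CPM at WT D0 and 79.9, 97.2, 123 and 112 at WT D7, a response of 0.23 that was not called. It fell in Trem2-/- mice from 85.5, 86.8, 83 and 86.7 to 64.7, 66.7, 60 and 63.1, below all WT D7 libraries. Its interaction was -0.65 ± 0.17 and was called again without WT D0 replicates 1 and 4 (-0.67). Mpeg1, a pore-forming protein of macrophages, was 338, 467, 476 and 371 at WT D0, 244, 263, 420.4 and 411 at WT D7, 557, 572, 476 and 373 at Trem2-/- D0 and 170.1, 196, 183 and 204 at Trem2-/- D7. The Trem2-/- D7 libraries were the lowest of all, and the interaction was -1.04 ± 0.27, or -0.84 and called again without WT D0 replicates 1 and 4.

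**Figure D4:**
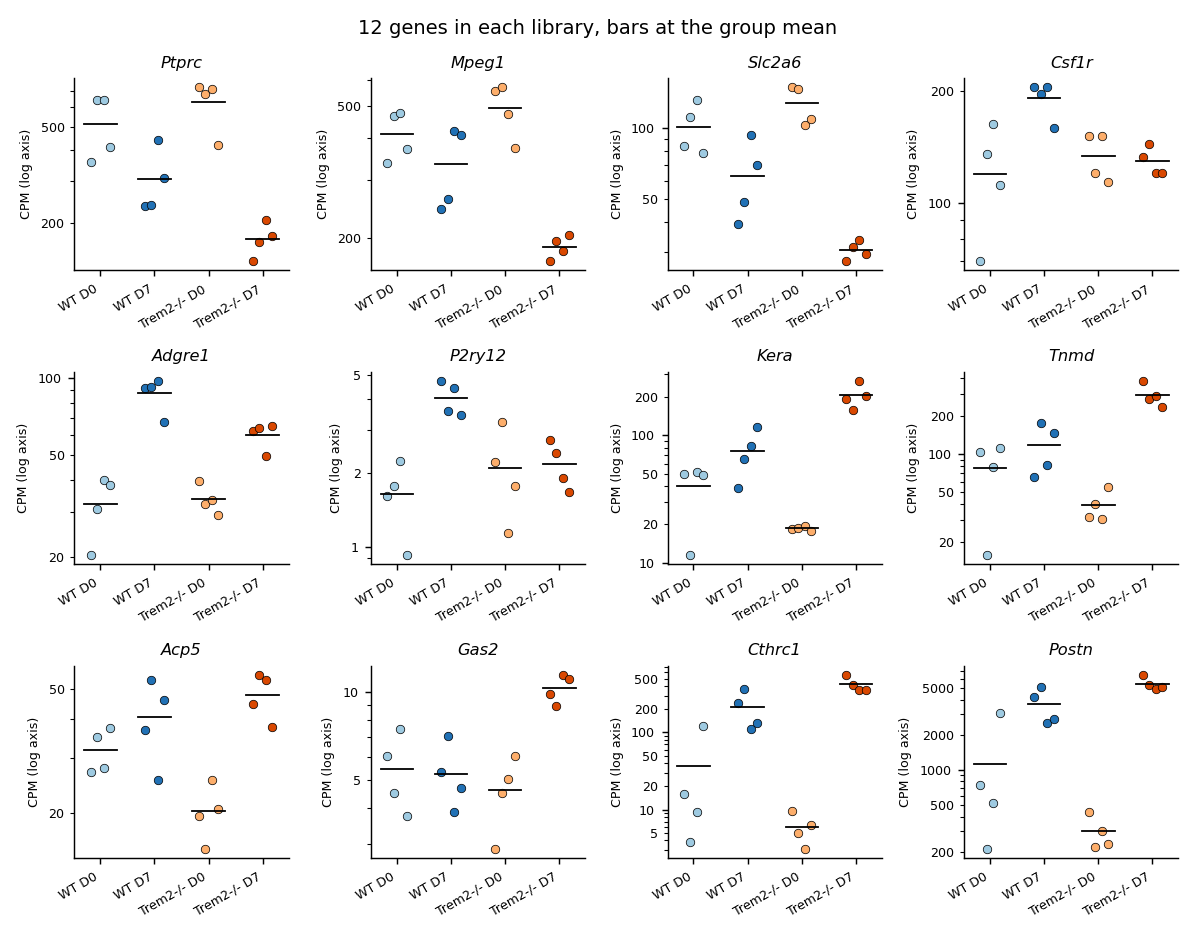
CPM (log axis) of 12 genes in every library of the 4 groups, with a bar at each group mean. Ptprc, Mpeg1 and Slc2a6 are lowest at Trem2-/- D7, Csf1r and P2ry12 are higher at WT D7 than in most other libraries, and Kera, Tnmd and Gas2 are highest at Trem2-/- D7.

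Sequences upstream of these genes are shown because the called macrophage members all had a negative interaction, and with them Tnmd, a tendon gene with a positive one, described next. They are reference sequence of RefSeq (GRCm38.p6), bases 250 to 51 before the annotated start, on the strand of the gene, for the called general macrophage genes and the called tendon genes that the table holds and whose window meets no annotated exon. Capitals mark GAGGAA on either strand, the core recognised by PU.1, a transcription factor of myeloid cells, in the macrophage genes, and CANNTG, the E-box bound by helix-loop-helix factors such as Scx, in Tnmd.
Cd68 at chr11:69666221-69666420, minus strand: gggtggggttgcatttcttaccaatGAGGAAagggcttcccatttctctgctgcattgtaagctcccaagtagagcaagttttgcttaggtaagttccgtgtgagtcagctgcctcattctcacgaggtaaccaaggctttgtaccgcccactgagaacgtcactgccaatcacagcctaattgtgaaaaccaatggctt
Mpeg1 at chr19:12460520-12460719, plus strand: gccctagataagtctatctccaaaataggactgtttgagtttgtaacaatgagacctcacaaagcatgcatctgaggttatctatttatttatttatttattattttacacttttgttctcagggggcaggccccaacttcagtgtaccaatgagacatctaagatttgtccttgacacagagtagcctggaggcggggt
Fcgr1 at chr3:96294020-96294219, minus strand: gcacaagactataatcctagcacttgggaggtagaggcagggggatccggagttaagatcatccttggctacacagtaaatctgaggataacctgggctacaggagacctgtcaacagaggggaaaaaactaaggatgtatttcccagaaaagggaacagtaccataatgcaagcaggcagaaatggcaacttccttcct
Tnmd at chrX:133850758-133850957, plus strand: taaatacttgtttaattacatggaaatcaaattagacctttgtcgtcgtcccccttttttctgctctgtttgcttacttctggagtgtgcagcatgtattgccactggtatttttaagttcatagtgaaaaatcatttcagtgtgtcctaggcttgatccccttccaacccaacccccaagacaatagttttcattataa
GAGGAA was found 1 time in the Cd68 window and 0 times in those of Mpeg1 and Fcgr1, and 18.8% of the 32851 windows in the table hold it. CANNTG, which 59.0% of the windows hold, was found 0 times in the Tnmd window. These matches describe letters in a window and say nothing of binding.

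Trem2 itself, the gene knocked out, was 2.51, 4.88, 5.26 and 5.61 CPM at WT D0 and 15.1, 22.5, 18.9 and 10.7 at WT D7. It was 1.88, 0.948, 2.68 and 1.7 at Trem2-/- D0 and 4.13, 4.69, 3.42 and 4.84 at Trem2-/- D7, so that reads remained and were called higher at D7 in both genotypes. The interaction was -0.73 ± 0.35 and not called. Tyrobp, its signalling adaptor, fell in both genotypes, with responses of -0.99 and -1.84, an interaction of -0.85 ± 0.38 that was called with all libraries and with 7 of 16 single libraries left out. It was -0.53 and not called without WT D0 replicates 1 and 4. Apoe, a ligand, was higher at D7 in both genotypes, by 0.96 and 0.70, an interaction of -0.26 ± 0.34 that was not called. Of the 15 lipid-associated macrophage genes tested, 1 was called more positive, Cd63, and 2 more negative, Tyrobp and Plin2. Over all genes tested these shares were 2.77% and 5.02%. The median interaction of the list was -0.19, or -0.23 with 0 called by limma without WT D0 replicates 1 and 4.

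Some responses called in WT mice were smaller or not called in Trem2-/- mice. Of the 661 more negative genes, 16 were called higher at D7 in WT mice, of which 3 were also called higher in Trem2-/- mice and 13 were not called. Of the 365 more positive genes, 9 were called lower at D7 in WT mice and not called in Trem2-/- mice. Among these 25, which were collected after their values were seen, were the macrophage genes Adgre1, Csf1r, Fcgr1, Cx3cr1, P2ry12, Cbr2 and Chit1. Without WT D0 replicates 1 and 4, 9 of the 16 and 8 of the 9 were called again. Of the macrophage genes named here, P2ry12 and Chit1 were called again, and Adgre1, Csf1r, Fcgr1, Cx3cr1 and Cbr2 were not. The others of the 16 called again were Itpr2, Vps13c, Nav2, Camk2b, Cacna1d, Foxo6 and Unc80. P2ry12 and Chit1 were members of none of the gene lists. These macrophage genes did not stand for resident macrophage genes in general. Of 9 resident macrophage genes tested, 8 had a negative interaction, with a median of -0.42, but only Cbr2 was called. In each genotype 5 were called higher at D7, with a median response of 1.01 in WT and 0.78 in Trem2-/- mice.

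P2ry12, a purinergic receptor of microglia and some tissue macrophages, was 1.61, 1.77, 2.23 and 0.926 CPM at WT D0 and 4.74, 3.57, 4.41 and 3.44 at WT D7, without overlap. In Trem2-/- mice it was 2.22, 3.22, 1.13 and 1.78 at D0 and 2.72, 2.41, 1.9 and 1.67 at D7, and the response of 0.07 was not called. Its interaction was -0.88 ± 0.29, and -0.67 and called without WT D0 replicates 1 and 4. Chit1, a macrophage chitinase, was 1.43, 3.2, 1.81 and 2.34 CPM at WT D0, 7.73, 3.96, 6.62 and 10.4 at WT D7, 4.3, 1.52, 7.81 and 2.01 at Trem2-/- D0 and 2.28, 2.55, 5.38 and 2.84 at Trem2-/- D7. It rose in WT mice, the Trem2-/- groups overlapped, and the interaction was -1.40 ± 0.50, or -1.27 and called again without the 2 libraries. Cx3cr1, a chemokine receptor of monocytes and resident macrophages, was 5.26, 14.1, 16.4 and 6.59 at WT D0 and 21.8, 22.1, 16.8 and 9.21 at WT D7, against 12.2, 11.8, 13.7 and 7.41 at Trem2-/- D0 and 7.89, 10.1, 7.22 and 8.09 at Trem2-/- D7. Its interaction was -1.11 ± 0.45, and without WT D0 replicates 1 and 4, which held its lowest WT values, it was -0.49 and not called. Exons of P2ry12 and Cx3cr1 overlap those of Med12l and Gm33858 on the opposite strand.

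The 9 that fell in WT mice only by call included Rpl36, a ribosomal protein gene (0.38 ± 0.17), Atp5e, an ATP synthase subunit (0.46 ± 0.20), and Rbm3, a cold-inducible RNA-binding protein (0.44 ± 0.18). Rpl36 shared 70.9% of its 75-base stretches with other genes, so that its count is uncertain. Of 72 cytosolic ribosomal protein genes tested, 51 were called lower at D7 in WT mice and 11 in Trem2-/- mice, with a median response of -0.38 and -0.19. Over all genes tested, 18.2% were called lower in WT and 27.9% in Trem2-/- mice. The median interaction of the ribosomal list was 0.18, and 3 were called, all more positive (Rpl36, Rpl22l1 and Rps27l), against 2.77% of all genes tested. The median was 0.28, with 4 called, without WT D0 replicates 1 and 4.

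The more positive genes of smallest p-value included extracellular matrix, secretory pathway and mitochondrial genes. Each of the 10 was called under every single library left out and without WT D0 replicates 1 and 4. Kera, which encodes keratocan, a small leucine-rich proteoglycan of cornea and tendon, lies on chromosome 10 (97606879 to 97613692, GRCm38). It was 49.5, 11.5, 51.2 and 49.1 CPM at WT D0, 38.4, 65.6, 82.2 and 117 at WT D7, 18.3, 18.7, 19.5 and 17.9 at Trem2-/- D0 and 193, 159, 266 and 201 at Trem2-/- D7. Every Trem2-/- D7 library lay above every WT D7 library, and at D0 WT replicate 2 was the lowest library while the other WT libraries lay above all Trem2-/- libraries. Its response was 0.99 in WT and 3.37 in Trem2-/- mice, an interaction of 2.38 ± 0.56. Its adjusted p was 0.579 with limma, 0.0141 with DESeq2 and 0.0107 with limma without WT D0 replicate 2.

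Egfl6, an EGF-like protein of the extracellular matrix, was 9.8, 4.16, 10.3 and 13.9 CPM at WT D0, 4.53, 5.66, 4.72 and 8.79 at WT D7, 3.63, 1.83, 2.39 and 4.71 at Trem2-/- D0 and 10.3, 6.00, 9.46 and 6.84 at Trem2-/- D7. It rose in Trem2-/- mice, its WT response of -0.55 was not called, and the interaction was 1.72 ± 0.43. Gas2, a protein that links actin and microtubules, was 6.04, 4.49, 7.44 and 3.76 at WT D0, 5.29, 7.08, 3.86 and 4.69 at WT D7, 2.89, 4.49, 5.01 and 6.02 at Trem2-/- D0 and 9.84, 8.96, 11.5 and 11.1 at Trem2-/- D7. Its Trem2-/- D7 libraries lay above all others, and the interaction was 1.08 ± 0.30, or 1.20 without WT D0 replicates 1 and 4. Exons of Gas2 overlap those of Fancf on the opposite strand.

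Several secretory pathway genes rose in both genotypes and by more in Trem2-/- mice. Tmed1, a cargo receptor between endoplasmic reticulum and Golgi, rose from 9.5, 6.4, 8.4 and 11.6 to 16.6, 21.6, 15.3 and 14.5 CPM in WT and from 7.26, 7.52, 7.4 and 8.57 to 27.4, 24.8, 24.2 and 24.4 in Trem2-/- mice (0.73 ± 0.22). Galnt1, which starts O-linked glycosylation, had an interaction of 0.43 ± 0.13, and Erlec1, a lectin of the endoplasmic reticulum, of 0.57 ± 0.17. Cnep1r1, a nuclear envelope phosphatase subunit (0.52 ± 0.14), Fundc2 (0.41 ± 0.12), Pccb, a propionyl-CoA carboxylase subunit (0.55 ± 0.17), and Zfp518b (0.53 ± 0.16) completed the 10. Over 15 procollagen folding and secretion genes, all called higher at D7 in both genotypes, the median interaction was 0.60, with 1 called, and -0.05 without WT D0 replicates 1 and 4.

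Tendon and ligament genes had a higher median response in Trem2-/- mice. Of 8 tested, 4 were called for the interaction, all more positive (Tnmd, Kera, Scx and Mkx) against 2.77% of all genes tested, and the median response was 0.89 in WT and 2.07 in Trem2-/- mice. The median interaction was 1.26, and 0.63 with 1 gene called without WT D0 replicates 1 and 4. Tnmd, which encodes tenomodulin, a membrane protein of tendon cells, was 104, 15.7, 78.5 and 111 CPM at WT D0, 65.7, 176, 80.9 and 146 at WT D7, 31.7, 40.2, 30.3 and 54.1 at Trem2-/- D0 and 379, 274, 289.7 and 233 at Trem2-/- D7. All Trem2-/- D7 libraries lay above all other libraries, the interaction was 2.10 ± 0.68, and without WT D0 replicates 1 and 4 it was 1.31 and not called.

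Matrix lists had larger median responses in Trem2-/- mice, with lower D0 medians than WT, and here WT D0 replicates 1 and 4 bore on the result. All 9 fibrillar collagen and collagen VI genes rose in both genotypes, with medians of 2.85 in WT and 4.05 in Trem2-/- mice, but 0 of 9 were called for the interaction. The median interaction of 1.246 was 0.16 without those libraries and 2.33, with 9 called, without WT D0 replicates 2 and 3. Of 12 cartilage matrix genes 11 were called higher in each genotype and 0 for the interaction, whose median was 1.197, or 0.41 without replicates 1 and 4. Trem2-/- minus WT had a median of -0.85 at D0 and 0.33 at D7 over the collagen genes. Over the cartilage matrix genes it was -1.74 at D0 and -0.51 at D7, lower in Trem2-/- mice on both days. The summed CPM of the cartilage matrix genes at D7 was 30896 to 77865 in WT and 29156 to 44120 in Trem2-/- mice. Of 9 provisional matrix genes 3 were called more positive (Postn, Thbs2 and Cthrc1), of 12 small leucine-rich proteoglycan genes 4 (Lum, Kera, Ogn and Aspn), of 14 elastic fiber and microfibril genes 2 (Mfap2 and Mfap4), and of 19 metalloproteinase and TIMP genes 3 (Mmp13, Mmp14 and Timp2), against 2.77% of all genes tested. Their median interactions were 1.171, 0.66, 0.52 and 0.52. Without WT D0 replicates 1 and 4 they were 0.28, -0.06, -0.12 and -0.13, so that the last 3 changed sign, and 0, 1, 1 and 0 genes were called by limma.

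Cthrc1, a secreted protein of activated fibroblasts, was 15.9, 3.78, 9.41 and 119.6 CPM at WT D0, 241, 360.3, 109.8 and 133 at WT D7, 9.68, 4.99, 3.1 and 6.33 at Trem2-/- D0 and 559.6, 414, 355 and 356 at Trem2-/- D7. WT D0 replicate 4 was more than any other D0 library and within the WT D7 range. The interaction was 2.56 ± 0.99, and 1.22 and not called without WT D0 replicates 1 and 4. Postn, a matricellular protein of healing tissue, was 743, 213, 519.7 and 3057 at WT D0 and 4245, 5109, 2519.6 and 2724 at WT D7, against 441, 219, 302 and 233 and 6519, 5294, 4876 and 5126 in Trem2-/- mice, an interaction of 1.93 ± 0.79 that was 0.84 and not called without the 2 libraries. Mmp13, the collagenase of cartilage and bone, was 317, 165, 237 and 1059 at WT D0, 162, 134, 68.3 and 986 at WT D7, 127, 71.6, 23 and 84.5 at Trem2-/- D0 and 188, 182, 707 and 159.9 at Trem2-/- D7. It rose in Trem2-/- mice, the WT response of -0.79 was not called, and single libraries were far above their groups.

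Osteoclast genes had a higher median response in Trem2-/- mice. Osteoclasts are bone-resorbing cells of the myeloid lineage that also express Trem2. Of 9 tested, 4 were called more positive (Acp5, Ctsk, Dcstamp and Atp6v0d2) and 0 more negative, against 2.77% and 5.02% of all genes tested, with a median response of 0.55 in WT and 1.11 in Trem2-/- mice. The median interaction was 0.46, and 0.37 with 3 called without WT D0 replicates 1 and 4. Acp5, the tartrate-resistant acid phosphatase, was 27.2, 35, 28 and 37.5 CPM at WT D0, 37.1, 53.4, 25.6 and 46.2 at WT D7, 19.6, 15.4, 25.6 and 20.5 at Trem2-/- D0 and 44.8, 55.7, 53.4 and 37.9 at Trem2-/- D7. The D7 groups overlapped, Trem2-/- D0 libraries lay below all WT D0 libraries, and the interaction was 0.91 ± 0.29, or 0.89 without WT D0 replicates 1 and 4. Atp6v0d2, a proton pump subunit of osteoclasts, was 3.17, 3.92, 2.71 and 4.36 at WT D0, 5.85, 5.72, 4.45 and 8.14 at WT D7, 1.61, 1.33, 1.49 and 1.08 at Trem2-/- D0 and 4.97, 6.89, 6.66 and 4.42 at Trem2-/- D7. Trem2-/- minus WT was -0.92 at D0 and -0.06 at D7 on the log2 scale, and the interaction was 0.87 ± 0.25. Exons of Acp5 overlap those of 6530413G14Rik on the opposite strand.

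All 15 Wnt genes tested had a positive interaction, with a median of 0.68 and 3 called (Wnt5b, Wnt16 and Dkk3), against 2.77% of all genes tested. The median was 0.12, with 1 called, without WT D0 replicates 1 and 4. The list holds ligands such as Wnt5b together with secreted antagonists such as Sfrp2 and Wif1. Its sign therefore does not give a direction of Wnt signalling, which was not tested. Dkk3, a secreted protein of the Dickkopf family, was 80.4, 27.7, 49.2 and 180.2 CPM at WT D0, 247, 303, 157 and 203 at WT D7, 40, 33.7, 36.9 and 39.4 at Trem2-/- D0 and 505, 430.1, 388 and 273 at Trem2-/- D7. Its interaction was 1.64 ± 0.56, or 0.80 and called again without the 2 libraries.

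Other lists held few called genes, with 5.02% of all genes tested called more negative and 2.77% more positive. Of 12 type I interferon response genes 2 were called more negative, Oas2 and Oas3, which make the messenger that activates RNase L, and the median interaction was -0.30, or -0.26 with 2 called without WT D0 replicates 1 and 4. Oas3 was 30.5, 44.4, 43.7 and 20.1 CPM at WT D0, 12, 19.3, 32.9 and 24.5 at WT D7, 70.3, 72.8, 73.1 and 33 at Trem2-/- D0 and 13.6, 12.5, 15.3 and 14.7 at Trem2-/- D7, an interaction of -1.37 ± 0.44 that was -0.97 and called again without WT D0 replicates 1 and 4. Of 10 glucocorticoid response genes 3 were called more negative, Tsc22d3, Per1 and Zbtb16, with a median of -0.21, or -0.28 with 2 called without those libraries. All 14 skeletal muscle genes had a negative interaction, with a median of -0.62, or -0.44 without them, and 1 called, Tnnt1, a slow troponin (-1.62 ± 0.49). The summed CPM of the muscle genes was 261 to 997 at WT D0, 209 to 505 at WT D7, 468 to 1329 at Trem2-/- D0 and 226 to 354 at Trem2-/- D7, and the part of muscle content in that result was not tested. Cxcl5, a chemokine for neutrophils, was 15.1, 1.77, 6.11 and 19 at WT D0, 8.43, 11.5, 10.7 and 2.14 at WT D7, 20.4, 2.65, 1.91 and 2.78 at Trem2-/- D0 and 19.4, 35.6, 17.4 and 42.1 at Trem2-/- D7, and it was the called gene of 17 cytokine and chemokine genes (2.49 ± 0.96, and 1.49 and not called without WT D0 replicates 1 and 4). Endothelial genes, 12 in number, had a median interaction of 0.05, or -0.18 without WT D0 replicates 1 and 4, with 0 called by limma in either fit.

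**Figure D5:**
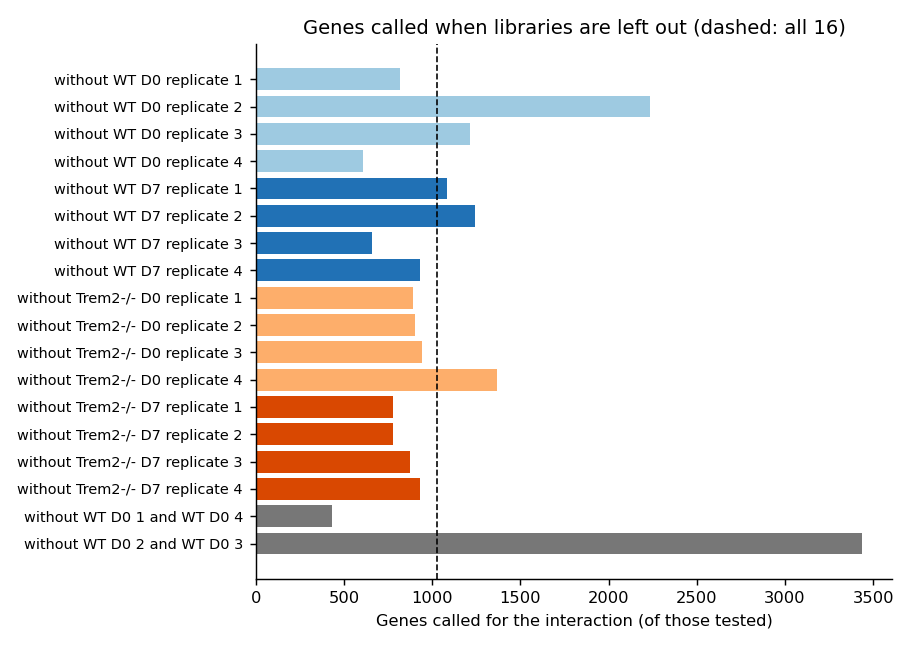
Number of genes called for the interaction (horizontal axis) with each of the 16 libraries left out and, in grey, with a pair of WT D0 libraries left out, the dashed line at the 1026 genes of all 16 libraries. Leaving out WT D0 replicate 4 gives 609 genes and leaving out WT D0 replicate 2 gives 2236, and the pairs give 431 without WT D0 replicates 1 and 4, and 3437 without WT D0 replicates 2 and 3.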

How the data were processed

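Bulk RNA-seq of knee joint cells was analysed in 16 libraries, grouped by the genotype and injury state of their labels. The deposited signal values were made by the authors, who aligned reads to mm10 with STAR, counted them with featureCounts and normalized them to TMM-scaled CPM with edgeR. Versions and strand setting are not given in the sources used here. Fcgr1, listed 2 times with identical values, was counted once. Of all values, 100% were whole multiples of 1 read (tolerance 0.1), so reads could be recovered.

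The interaction was fitted on log2(CPM + 1) with limma 3.58.1 (trend) in R 4.3.3 and all 4 groups as one factor. Genes were called at p under 0.05 without adjustment and at a fold of more than 1.25, as in the study's methods, beside Benjamini-Hochberg adjusted p. This scale understates the change of low genes. Named genes were the 10 of smallest p-value per direction among called genes averaging at least 5 CPM, up to 2 called genes per list, Trem2, Tyrobp and Apoe. Genes named beyond these were chosen after their values were seen. The 56 lists and the comparison were chosen with earlier results of these data known. Some genes are members of more than 1 list and count in each. edgeR 4.0.16, voom and DESeq2 1.42.0 on recovered reads, other filters, pseudocounts and normalizations, a replicate block and each library left out were alternatives. Positions are from GENCODE M21 (GRCm38), in which 13428 of 13733 symbols were found.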

Additional observations from a re-analysis of the deposited data

Results flagged for a closer look

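By the test of the difference itself, the interaction, the injury response was called different between the genotypes in 1026 genes at the unadjusted threshold. An adjusted p under 0.05 was reached by 0 of them with limma. Among the named genes, 396 groups of 4 libraries were examined for a library far from the other 3, using the distance to the closest other library as a share of the whole range. In 26 groups the ratio exceeded 0.829, where chance gives about 20 (5%).

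Kera was 11.5 CPM in WT D0 replicate 2 against 49.1 to 51.2 in its group (gap ratio 0.947). For Cnep1r1, Trem2-/- D7 replicate 1 lay at 35.7 CPM and the other 3 libraries between 36.5 and 36.6 (gap ratio 0.896). In Trem2-/- D0 replicate 3, Map4k2 was at 218 CPM, with 137 to 149 in the other 3 (gap ratio 0.851). Ptprc was 418 CPM in Trem2-/- D0 replicate 4 against 678 to 726 in its group (gap ratio 0.845). For Cytip, WT D7 replicate 3 lay at 169 CPM and the other 3 libraries between 98.4 and 109.9 (gap ratio 0.837). In WT D7 replicate 3, Prdm1 was at 54.5 CPM, with 34.7 to 37.9 in the other 3 (gap ratio 0.838). Ciita was 4.46 CPM in WT D7 replicate 1 against 2.49 to 2.72 in its group (gap ratio 0.882). For H2-Ob, Trem2-/- D7 replicate 4 lay at 6.51 CPM and the other 3 libraries between 4.03 and 4.34 (gap ratio 0.875). In Trem2-/- D0 replicate 1, Cxcl5 was at 20.4 CPM, with 1.91 to 2.78 in the other 3 (gap ratio 0.953). Oas3 was 33.0 CPM in Trem2-/- D0 replicate 4 against 70.3 to 73.1 in its group (gap ratio 0.930). For Oas2, Trem2-/- D7 replicate 4 lay at 18.9 CPM and the other 3 libraries between 13.1 and 13.7 (gap ratio 0.901). In WT D0 replicate 4, Cthrc1 was at 119.6 CPM, with 3.78 to 15.9 in the other 3 (gap ratio 0.895). Mmp13 was 1059 CPM in WT D0 replicate 4 against 165 to 317 in its group (gap ratio 0.83).

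For Mmp13, WT D7 replicate 4 lay at 986 CPM and the other 3 libraries between 68.3 and 162 (gap ratio 0.898). In Trem2-/- D7 replicate 3, Mmp13 was at 707 CPM, with 159.9 to 188 in the other 3 (gap ratio 0.948). Gdf6 was 3.33 CPM in WT D7 replicate 4 against 0.623 to 0.793 in its group (gap ratio 0.937). For Gdf6, Trem2-/- D7 replicate 3 lay at 4.03 CPM and the other 3 libraries between 0.873 and 1.251 (gap ratio 0.880). In WT D0 replicate 4, Colgalt1 was at 172 CPM, with 94.6 to 103 in the other 3 (gap ratio 0.888). Tnnt1 was 8.51 CPM in WT D7 replicate 3 against 5.29 to 5.58 in its group (gap ratio 0.910). For Klf6, WT D0 replicate 2 lay at 1055 CPM and the other 3 libraries between 869 and 887 (gap ratio 0.907). In Trem2-/- D0 replicate 3, Tsc22d3 was at 301 CPM, with 165 to 171 in the other 3 (gap ratio 0.952). Gla was 214 CPM in WT D0 replicate 2 against 200.4 to 203 in its group (gap ratio 0.832). For Atp5e, Trem2-/- D0 replicate 4 lay at 36.7 CPM and the other 3 libraries between 44.5 and 45.4 (gap ratio 0.890). In Trem2-/- D0 replicate 2, Rpl36 was at 119.6 CPM, with 149.8 to 154 in the other 3 (gap ratio 0.872). Cmtr2 was 3.32 CPM in Trem2-/- D0 replicate 4 against 4.55 to 4.77 in its group (gap ratio 0.846). For 2810408A11Rik, Trem2-/- D0 replicate 3 lay at 1.55 CPM and the other 3 libraries between 0.806 and 0.927 (gap ratio 0.838).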

How the results depend on the processing

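The count of 1026 genes called for the interaction was between 847 and 1494 with other pseudocounts, filters, normalizations, weights and tools, and 635 at a fold over 1.5. Leaving out 1 library gave 609 (without WT D0 replicate 4) to 2236 (without WT D0 replicate 2), with 662 for WT D7 replicate 3 and 818 for WT D0 replicate 1. For these 16 fits 468 genes were called in every one. Leaving out WT D0 replicates 1 and 4 together gave 431, and leaving out WT D0 replicates 2 and 3 together gave 3437, both chosen after the data were seen and with fewer libraries in the fit. An adjusted p under 0.05 was reached by 0 genes, except for 1 with DESeq2, 0 to 1 with 1 library left out (1 without WT D0 replicate 2) and 1019 without WT D0 replicates 2 and 3. The share of called genes that were more positive was 35.6%, with 43.2% after quantile normalization, 52.2% without WT D0 replicate 2 and 56.2% without WT D0 replicates 2 and 3. Called genes with a smaller response in Trem2-/- mice were 10, but 75 without WT D0 replicates 1 and 4 and 70 with library quality weights, where those of opposite sign were 298 in place of 104. No value of the 99 named genes reversed, and of 3052 gene and alternative pairs 395 lost and 7 gained a call. The sign of the median was kept by 29 of 56 lists under every alternative and changed in 19 without WT D0 replicates 1 and 4, and the cause was not tested. Replicate numbers were not taken to pair the libraries (r between same-numbered deviations from -0.51 to 0.41, over 0.1 in 11 of 24 pairs). Between D0 and D7 of the same genotype, r was 0.05 to 0.41 in WT and -0.20 to 0.11 in Trem2-/- mice. These values do not settle pairing within a genotype. With the number as a replicate block 1009 genes were called and 0 passed adjustment.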
